A study of Mus musculus with 3 samples.

Results

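The sterol and fatty acid synthesis module is a set of 37 named genes that cover the making of cholesterol, the making of fatty acids, the factors that control both, and the export, transport and esterification of cholesterol. The members were taken by symbol from the annotated names of the transcripts, and all 37 were found among the 55536 genes of the tables that match the mouse annotation GENCODE M21. They fall into 17 sterol synthesis genes (7 early steps to farnesyl diphosphate and 10 late steps from squalene on), 6 fatty acid synthesis genes, 5 regulators, 4 efflux and LXR target genes, and 5 genes of transport and esterification. Levels were read in polyadenylated RNA of primary macrophages grown from bone marrow of the inbred mouse strain C57BL/6J. Per the labels, the cells received 100 ng/ml lipid A for 12 hours, spent 12 hours in washout, and then had the same dose for another 180 minutes. Lipid A is the part of bacterial lipopolysaccharide that Toll-like receptor 4 binds. Other label fields call the agent lipoprotein A and class it as a protein, and the conflict was not resolved. All 3 replicates share this treatment and a single donor record, sex and age are recorded as not collected, and nothing says whether the replicates came from separate mice. Their spread may therefore be technical. Cells without lipid A or with 1 exposure were not analysed here, so no value below is a response to lipid A.

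Sterol synthesis is switched on by the transcription factor SREBP2 (gene Srebf2), and fatty acid synthesis mainly by SREBP1 (gene Srebf1). Both are made as membrane proteins of the endoplasmic reticulum, which the escort protein SCAP carries to the Golgi to be cut when sterols are scarce and which the INSIG proteins hold back when sterols are plentiful. Oxysterols, which build up when cells are loaded with cholesterol, activate the nuclear receptors LXR alpha and LXR beta, which switch on cholesterol exporters and also Srebf1. Macrophages take up cholesterol from lipoproteins and dying cells, and interferon and TLR signals are known to alter both arms.

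Promoter sequences are shown for the genes at which the synthesis arm, the LXR arm and the alternative starts of Srebf1 can be read side by side. RefSeq promoter windows (build GRCm38.p6, 250 bases before to 50 after a gene's start) were found for 29 of the 37 members, as 37 windows because some genes have several starts. Fdps, Fdft1, Sqle, Abcg1, Npc1, Stard4, Scd1 and Scd2 had none. The 250 bases before the start are printed 5′ to 3′ on the strand of the gene. They lie at chr13:119690101-119690350 (plus strand) for Hmgcs1, chr5:114444019-114444268 (plus strand) for Mvk, chr4:53159896-53160145 (minus strand) for Abca1, chr11:120824548-120824797 (minus strand) for Fasn, chr11:60210472-60210721 (minus strand) for the Srebf1 start at exon 1c and chr11:60220628-60220877 (minus strand) for its start at exon 1a. Capitals mark 3 kinds of match: the core of a sterol regulatory element (TCACNCCAC, N being any base), the box of the factor NF-Y (CCAAT), and a loose LXR element of 2 copies of NGGTNA with 4 bases between them, each searched on both strands.
Hmgcs1: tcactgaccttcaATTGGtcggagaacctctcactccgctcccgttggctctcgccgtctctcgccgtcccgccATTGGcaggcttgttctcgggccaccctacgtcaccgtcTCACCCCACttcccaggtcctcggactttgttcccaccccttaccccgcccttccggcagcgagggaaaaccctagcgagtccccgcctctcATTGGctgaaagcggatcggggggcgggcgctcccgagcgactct
Mvk: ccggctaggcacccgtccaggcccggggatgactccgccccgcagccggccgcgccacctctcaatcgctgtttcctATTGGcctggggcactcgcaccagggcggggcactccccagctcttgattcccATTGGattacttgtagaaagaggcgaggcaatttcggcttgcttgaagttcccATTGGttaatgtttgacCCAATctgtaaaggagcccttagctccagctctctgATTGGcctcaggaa
Abca1: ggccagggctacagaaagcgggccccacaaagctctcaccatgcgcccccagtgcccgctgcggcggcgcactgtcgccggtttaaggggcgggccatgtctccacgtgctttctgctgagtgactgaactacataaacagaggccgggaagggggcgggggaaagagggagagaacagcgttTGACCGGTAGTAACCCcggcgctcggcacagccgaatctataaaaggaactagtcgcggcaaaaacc
Fasn: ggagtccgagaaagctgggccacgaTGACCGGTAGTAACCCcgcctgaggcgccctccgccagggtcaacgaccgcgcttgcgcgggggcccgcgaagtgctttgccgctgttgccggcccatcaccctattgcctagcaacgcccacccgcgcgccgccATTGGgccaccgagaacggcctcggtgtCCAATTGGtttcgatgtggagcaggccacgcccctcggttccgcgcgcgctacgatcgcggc
Srebf1 exon 1c: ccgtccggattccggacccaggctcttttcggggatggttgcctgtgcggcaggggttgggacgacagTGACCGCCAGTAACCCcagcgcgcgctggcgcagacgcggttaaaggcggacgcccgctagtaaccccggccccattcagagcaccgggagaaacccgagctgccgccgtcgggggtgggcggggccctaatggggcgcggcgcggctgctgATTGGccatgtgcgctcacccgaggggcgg
Srebf1 exon 1a: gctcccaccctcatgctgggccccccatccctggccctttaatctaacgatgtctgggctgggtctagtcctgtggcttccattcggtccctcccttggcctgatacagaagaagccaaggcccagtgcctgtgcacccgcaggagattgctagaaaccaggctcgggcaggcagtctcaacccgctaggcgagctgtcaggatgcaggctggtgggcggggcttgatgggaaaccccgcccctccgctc

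The sterol regulatory element core was found in 1 of the 37 member windows, that of Hmgcs1 at position -137 from the start, and in 1.24% of all 32851 RefSeq windows. The loose LXR element was found in 3 member windows, against 0.718% of all windows. Its matches in Abca1, at position -67, and in Fasn, at position -225, have the same letters throughout, and the third lies at position -182 from the exon 1c start of Srebf1. The exon 1a window of Srebf1 holds no capitals. NF-Y boxes stood in 24 of 37 member windows (64.9%, against 37.4% of all windows) and in 13 of the 14 sterol synthesis genes with a window, and the Mvk stretch holds 5 of them. A CCAAT box together with the Sp1 box GGGCGG, which is not capitalised, was found in 12 of the 17 sterol synthesis windows (70.6%, against 12.8% of all windows). In the Fasn stretch, 2 CCAAT matches on opposite strands overlap. A match is a run of letters and not a measured binding site.

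Depth was 23377091, 36824106 and 37685712 counts over matched genes in replicates 1, 2 and 3. Levels are given in TPM, a share of all transcripts that is corrected for transcript length so that genes can be compared, and a gene is called expressed where it has at least 1 TPM in all 3 replicates. All 8 macrophage markers were expressed, while 0 of 5 adipocyte, 0 of 3 B cell, 0 of 3 T cell, 0 of 4 stromal and 0 of 3 dendritic cell markers were. Of 3 endothelial markers 1 was, Pecam1 at 1.90, 2.45 and 1.73 TPM. Of 5 neutrophil markers 2 were, S100a8 and S100a9. The 5 neutrophil markers summed to 12.2, 106 and 11.0 TPM in replicates 1, 2 and 3, so replicate 2 stood apart in the sum. Most of the sum in replicate 2 was S100a8, at 39.4 TPM, and S100a9, at 58.0 TPM. Of the members, 35 of 37 were expressed, beside 18.9% of all 55536 genes, a total that includes pseudogenes and genes of other tissues. The exceptions were the fatty acid genes Scd1 and Elovl6. Over all members the median level was 4.35 ± 0.11 on the log2(TPM + 1) scale (SD, n = 3), and over all 10510 expressed genes it was 4.14 ± 0.02.

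**Figure D1:**
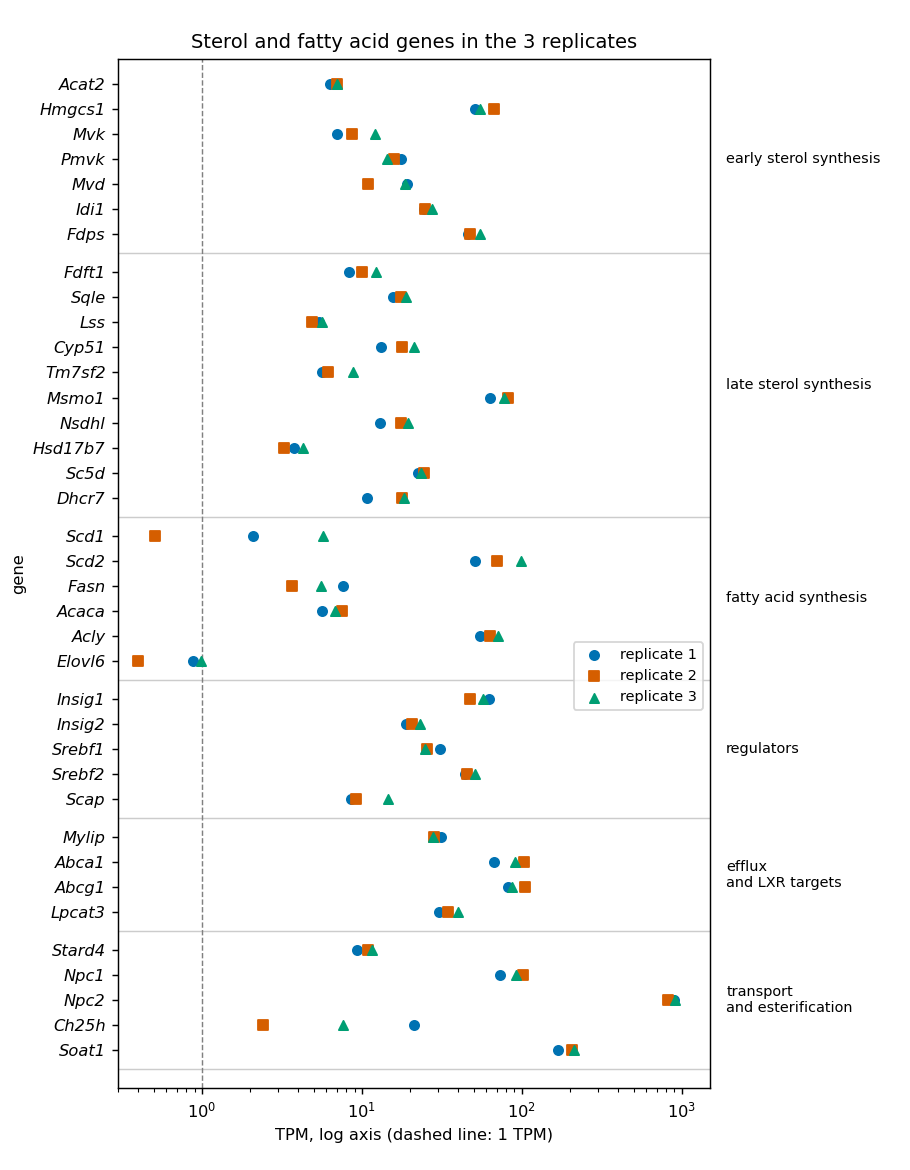
TPM (log axis) of each of the 37 genes in replicates 1, 2 and 3, grouped by role, with a dashed line at 1 TPM. Npc2 stands highest and Elovl6 lowest; the replicates lie close together for most genes and far apart for Scd1 and Ch25h.

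In the early steps of sterol synthesis, all 7 genes were expressed and 2 of them led. Hmgcs1, which condenses acetyl units to HMG-CoA, was at 51.2, 67.2 and 54.6 TPM in replicates 1, 2 and 3 (57.7 ± 8.44, SD, n = 3). Fdps, the synthase of farnesyl diphosphate, which also feeds protein prenylation, was at 46.0, 47.8 and 54.9 TPM (49.6 ± 4.75). Their replicate ranges overlapped, so neither stood above the other throughout. Idi1, which isomerises the isoprene building block, followed at 25.5 ± 1.61 TPM. The decarboxylase gene Mvd was at 19.3, 10.9 and 18.5 TPM, with replicate 2 low, and the phosphomevalonate kinase gene Pmvk at 17.6, 16.0 and 14.3 TPM. Mvk, whose product phosphorylates mevalonate, was at 7.04, 8.69 and 12.1 TPM, and the thiolase gene Acat2, the entry step, at 6.34, 6.98 and 7.02 TPM. Mean TPM was 8.51-fold higher for Hmgcs1 than for Acat2, its neighbour in the pathway. Part of the 31-base sequences of Acat2 (43.7%, mainly Acat3), Fdps (27.9%, mainly Gm43738), Idi1 (27.1%, mainly Gm13502) and Hmgcs1 (13.1%, mainly Gm48342) also occurs in other genes, so the levels of these 4 depend on how such reads were divided.

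Among the 10 late genes, Msmo1, which starts the removal of methyl groups from the sterol ring, was highest at 63.4, 81.5 and 77.6 TPM (74.2 ± 9.56, SD, n = 3). It was also the highest of all 17 sterol synthesis genes in every replicate by gene TPM. In coding transcripts of at least 1000 bases, Msmo1 was at 49.1, 63.9 and 64.8 TPM and Hmgcs1 at 50.2, 64.9 and 53.6 TPM, so that Hmgcs1 was the higher in replicates 1 and 2. Sc5d, the desaturase of a late ring step, was at 22.3, 24.3 and 23.6 TPM, the tightest of the sterol genes, with a coefficient of variation of 4.28%. Cyp51, which demethylates lanosterol, was at 13.2, 17.8 and 21.1 TPM, and Sqle, the squalene epoxidase that is a control point of the pathway, at 15.6, 17.5 and 18.9 TPM. Nsdhl, which acts after Msmo1 in demethylation, was at 13.0, 17.7 and 19.5 TPM, and Dhcr7, a reductase of a final step to cholesterol, at 10.8, 17.9 and 18.4 TPM. In these 4 genes replicate 1 was the lowest. The squalene synthase gene Fdft1 was at 10.2 ± 2.03 TPM and the sterol reductase gene Tm7sf2 at 6.82 ± 1.69 TPM. Lss, which closes the lanosterol rings, was at 5.37, 4.85 and 5.67 TPM, and Hsd17b7, the ketosteroid reductase, at 3.74, 3.28 and 4.27 TPM. Hsd17b7 was the lowest sterol gene in every replicate, 19.7-fold below Msmo1 by mean TPM although both enzymes serve demethylation. Fdft1 shares 31.9% of its 31-base sequences, mainly with Ctsb, which overlaps it on the opposite strand, and Tm7sf2 shares 13.3%, mainly with Vps51. Whether the counting was strand-specific is not given in the sources used here, so these levels are uncertain.

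Ordered by mean TPM, the sterol genes ran Msmo1, Hmgcs1, Fdps, Idi1, Sc5d, Cyp51, Sqle, Nsdhl, Mvd, Pmvk, Dhcr7, Fdft1, Mvk, Tm7sf2, Acat2, Lss and Hsd17b7. Of the 16 neighbouring pairs in this order, 9 kept their order in all 3 replicates. The pairs that did not are Hmgcs1 and Fdps, the 5 pairs from Cyp51 to Dhcr7, and Tm7sf2 and Acat2. The 6 genes from Cyp51 to Dhcr7, with means between 15.7 and 17.4 TPM, therefore cannot be ranked. Median log2(TPM + 1) was 4.24 ± 0.13 in the early and 4.07 ± 0.33 in the late genes (SD, n = 3). The late minus early difference was -0.65, 0.13 and 0.01 in replicates 1, 2 and 3, of mixed sign and smaller on average than its spread (-0.17 ± 0.42).

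Fatty acid synthesis genes were split between 2 abundant and 4 scarce transcripts. Acly, which makes cytosolic acetyl-CoA from citrate and so feeds both pathways, was at 54.5, 62.9 and 70.6 TPM (62.7 ± 8.04, SD, n = 3). Scd2, a desaturase that puts a double bond into stearate and palmitate, was at 51.0, 70.2 and 99.1 TPM (73.4 ± 24.2). No other gene of the group exceeded 10 TPM in any replicate. Acaca, which makes malonyl-CoA, was at 5.60, 7.50 and 6.78 TPM, and Fasn, the synthase that builds palmitate from it, at 7.66, 3.65 and 5.53 TPM. Their log2 ratio, Fasn over Acaca, was 0.45, -1.04 and -0.29, so by this gene TPM neither was higher throughout. In the tables made from FASTQ files, the authors' second quantification, Acaca was the higher in each replicate. It was also the higher in each replicate in coding transcripts of at least 1000 bases, at 4.43, 4.76 and 5.59 TPM against 3.60, 3.13 and 2.93 TPM for Fasn. Elovl6, which lengthens palmitate to stearate, was at 0.88, 0.40 and 0.98 TPM, below 1 TPM in every replicate but detected, with 55, 45 and 94 counts. Acaca shares 33.5% of its 31-base sequences, mainly with Gm5182.

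Scd1 and Scd2 encode close paralogs and lie on chromosome 19 with Scd4 between them (Scd1 at 44394455 to 44407879 on the minus strand, Scd2 at 44293674 to 44306864 on the plus strand, build GRCm38, which the files call mm10). Scd1 was at 2.10, 0.51 and 5.70 TPM, from 153, 60 and 468 counts. In CPM, counts scaled by the library total, that is 6.54 (exact 95% Poisson interval 5.55 to 7.67), 1.63 (1.24 to 2.10) and 12.4 (11.3 to 13.6), intervals that cover counting error only and do not overlap. Scd2 exceeded Scd1 24.3-fold, 138-fold and 17.4-fold in replicates 1, 2 and 3, a log2 ratio of 5.28 ± 1.60 (SD, n = 3). Scd2 was the higher in every replicate. Scd1 shares 8.18% of its 31-base sequences and Scd2 6.81%, each mainly with the other. Scd2 had 4224, 9407 and 13535 counts, so the way shared reads were divided bears more on the level of Scd1. In the FASTQ-made tables Scd1 was at 1.42, 0.86 and 5.39 TPM, again lowest in replicate 2 and highest in replicate 3.

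The regulators were all expressed. Srebf2 was at 44.3, 45.7 and 50.9 TPM (46.9 ± 3.47, SD, n = 3) and Srebf1 at 30.7, 25.7 and 24.9 TPM (27.1 ± 3.12). Srebf1 stood below Srebf2 in each replicate, by a log2 ratio of -0.80 ± 0.25. In the FASTQ-made tables the ratio was -0.42, and Srebf1 was slightly the higher in replicate 1, at 30.6 against 29.0 TPM. Insig1, itself a classical SREBP target, was at 62.4, 47.7 and 57.1 TPM (55.7 ± 7.44) and exceeded Insig2, at 18.9, 20.5 and 23.1 TPM, in each replicate (log2 ratio 1.42 ± 0.27). The log2 ratio of Hmgcs1 to Insig1 was -0.29, 0.49 and -0.06, so neither of these SREBP targets was higher throughout. Scap was the lowest regulator at 8.54, 9.24 and 14.5 TPM, with replicate 3 high, and 11.3% of its 31-base sequences also occur in other genes.

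Srebf1 makes SREBP1a, the stronger activator, from exon 1a and SREBP1c, the form that LXR and insulin raise in liver, from exon 1c further downstream. Srebf1-201, which starts at exon 1a (chromosome 11, first base 60220604, minus strand) with 91 coding bases in its first exon, took 62.7%, 59.4% and 71.6% of the gene's TPM in replicates 1, 2 and 3 (64.5% ± 6.29, SD, n = 3). Srebf1-207, which starts at exon 1c (first base 60210465) with 19 coding bases in its first exon, took 12.5%, 16.5% and 18.3% (15.8% ± 2.98). In the FASTQ-made tables the share of Srebf1-201 was lower, at 36.8%, 45.4% and 53.7%. In the alignment-made tables the exon 1a form exceeded the exon 1c form 5.02-fold, 3.59-fold and 3.91-fold. In the FASTQ-made tables the excess was 2.31-fold, 2.09-fold and 2.16-fold, the same direction in every replicate at a smaller size (log2 ratio 1.13 ± 0.07 against 2.05 ± 0.25). The exon 1c start is the one whose window carries the loose LXR element printed above. The forms share most of their exons, so their split rests on the reads over the first exons and on the estimation by the authors' programs.

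Over all members, the leading transcript was protein coding in 37 of 37 genes, held at least 90% of the TPM in 18, and was the same transcript in the FASTQ-made tables in 34. Transcripts annotated as noncoding took at least 20% of the TPM in 3 genes. In Npc1, which moves cholesterol out of lysosomes, they took 44.8% ± 1.17 (SD, n = 3), nearly all in 1 retained-intron transcript. In the FASTQ-made tables that Npc1 transcript took less, at 23.1%, 23.2% and 18.1% in replicates 1, 2 and 3. For Srebf2 the noncoding share was 24.7% ± 1.73, mostly in 1 retained-intron transcript. In Fasn it was 37.4% ± 20.6 and differed between replicates. Transcripts of Fasn shorter than 1000 bases took 53.0%, 14.0% and 47.1% of its TPM in replicates 1, 2 and 3. Counting only coding transcripts of at least 1000 bases, Fasn was at 3.60, 3.13 and 2.93 TPM, a 1.23-fold range in place of 2.10-fold. Short transcripts also took at least 20% of the TPM of Insig2, Tm7sf2, Soat1 and Acaca, genes for which the TPM sum over transcripts weighs short pieces heavily.

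**Figure D2:**
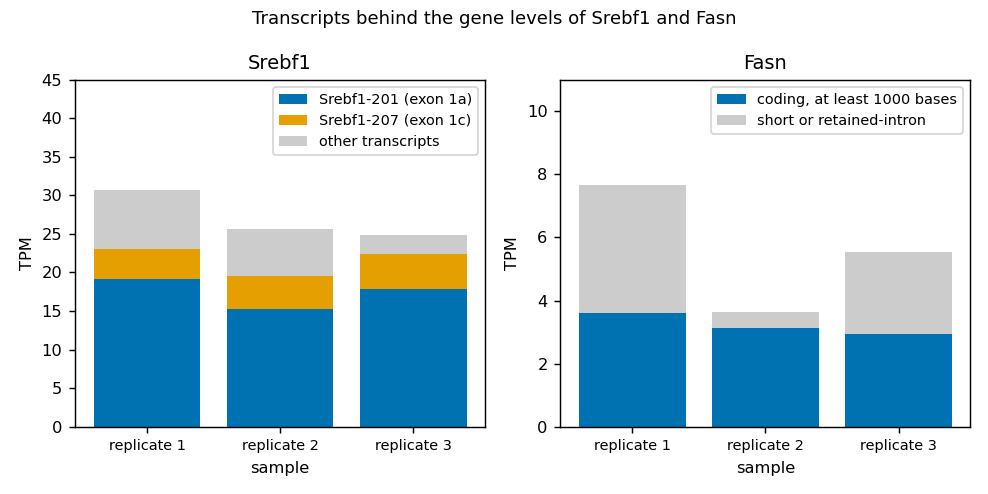
Stacked bars give the TPM of Srebf1 (left) and Fasn (right) in replicates 1, 2 and 3, split by transcript. In these alignment-made tables the exon 1a transcript is the largest part of Srebf1 in each replicate, and the coding transcripts of Fasn of at least 1000 bases, between 2.93 and 3.60 TPM, vary less than the grey part above them.

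The 4 genes grouped as efflux and LXR targets were high. The group does not hold every member tied to LXR here. Srebf1, at 27.1 ± 3.12 TPM, was counted with the regulators. Fasn, at 5.61 ± 2.01 TPM, whose window carries the loose LXR element, was counted with fatty acid synthesis. Abcg1, which exports cholesterol to mature high-density lipoprotein, was at 82.1, 105 and 86.7 TPM (91.3 ± 12.2, SD, n = 3), and Abca1, which loads lipid-poor apolipoprotein A-I, at 66.7, 103 and 90.9 TPM (86.7 ± 18.4). Replicate 1 was the lowest in both. Their log2 ratio, Abca1 over Abcg1, was -0.30, -0.03 and 0.07, so they did not differ beyond their spread, although Abcg1 was the higher in each replicate of the FASTQ-made tables. Lpcat3, which puts polyunsaturated chains into phospholipids, was at 30.5, 34.4 and 40.2 TPM, and Mylip, a ubiquitin ligase that degrades lipoprotein receptors, at 31.2, 28.2 and 27.8 TPM. Even the lowest of the 4, Mylip at 29.1 ± 1.86 TPM, had a higher mean than 14 of the 17 sterol synthesis genes.

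Transport and esterification held the most abundant member. Npc2, which hands cholesterol to NPC1 inside lysosomes, was at 891, 818 and 905 TPM (871.5 ± 46.7, SD, n = 3), and 98.7% of expressed genes had a lower mean. Npc1 was at 73.5, 102 and 92.2 TPM, so Npc2 exceeded its partner by a log2 ratio of 3.30 ± 0.30. Soat1, which esterifies cholesterol for storage in droplets, was at 169, 207 and 213 TPM (196 ± 23.9). Stard4, a cytosolic carrier that also belongs to the SREBP targets, was far lower at 9.36, 10.9 and 11.5 TPM. Ch25h, which makes the oxysterol 25-hydroxycholesterol and is known as an interferon-induced gene, was at 21.3, 2.40 and 7.68 TPM, from 383, 69 and 223 counts. Its replicates did not overlap in counting error: 16.4 CPM (exact 95% Poisson interval 14.8 to 18.1), 1.87 CPM (1.46 to 2.37) and 5.92 CPM (5.17 to 6.75).

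Set side by side within each replicate, the groups kept an order of efflux and LXR targets above sterol synthesis above fatty acid synthesis. The first group is called efflux for short, although of its 4 genes only Abca1 and Abcg1 are described here as exporters. The median log2(TPM + 1) was 5.79 ± 0.21 for efflux and LXR targets, 4.11 ± 0.24 for sterol synthesis and 2.81 ± 0.14 for fatty acid synthesis (SD, n = 3), while transport stood at 6.48 ± 0.24 and the regulators at 4.81 ± 0.16. The place of transport above efflux depended on the transcripts counted. In coding transcripts of at least 1000 bases transport was at 5.64 and efflux at 5.76, while in the FASTQ-made tables they were at 5.97 and 5.54. Efflux minus sterol synthesis was 1.71, 1.71 and 1.62 in replicates 1, 2 and 3 (1.68 ± 0.05). Efflux minus fatty acid synthesis was 2.63, 3.27 and 3.06 (2.98 ± 0.33). Fatty acid minus sterol synthesis was -0.91, -1.56 and -1.44 (-1.30 ± 0.34). Each difference is larger than its spread over replicates, but with 3 replicates the smallest two-sided p of an exact sign-flip test is 0.25, and no test was made over genes. The place of the fatty acid group rests on its scarce genes. With the 4 expressed members alone, leaving out Scd1 and Elovl6, fatty acid minus sterol synthesis became 0.39, the opposite direction, and with the mean over members in place of the median it was -0.71. Fatty acid genes spanned 97.5-fold in mean TPM, from Elovl6 to Scd2, against 3.14-fold for the efflux group.

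**Figure D3:**
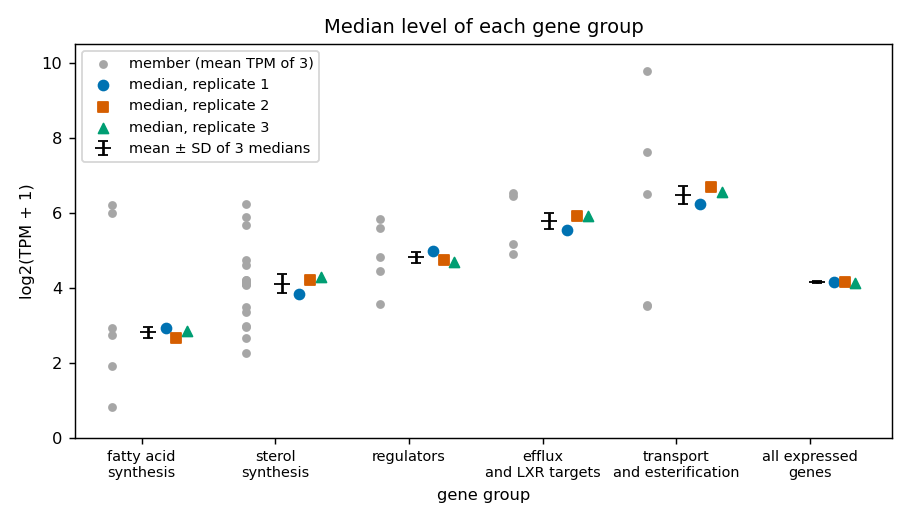
Grey points give each gene's mean TPM on the log2(TPM + 1) scale; coloured symbols give the median over the group in each replicate, and black bars the mean ± SD of the 3 medians. The fatty acid medians lie below those of sterol synthesis, and the medians of efflux and LXR targets above them, in all 3 replicates.

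Replicates agreed for most members. The highest replicate was at least 2-fold above the lowest in 2 of the 35 expressed members, Ch25h (8.88-fold) and Fasn (2.10-fold), beside 8.26% of all expressed genes. Without replicate 1 the count was 1, Ch25h. In the FASTQ-made tables it was 9 of 35 members, beside 9.73% of expressed genes there. Over expressed genes, the median ratio of FASTQ-made to alignment-made TPM was 0.715, 0.879 and 0.981 in replicates 1, 2 and 3. Ranges in the FASTQ-made tables include this shift between libraries, both for the members and for the expressed genes set beside them. Its part in the count of 9 members was not tested. In the alignment-made tables Scd1, at 11.2-fold, and Elovl6, at 2.45-fold, also passed 2-fold but lie below the expression minimum. The median range was 1.31-fold over all members, 1.30-fold over sterol synthesis genes, 2.02-fold over the 6 fatty acid genes and 1.29-fold over all expressed genes. Ch25h had a wider range than 99.9% of expressed genes. All 17 sterol genes stayed under 2-fold, the widest being Mvd at 1.76-fold, but 5 of them (Mvk, Cyp51, Tm7sf2, Nsdhl and Dhcr7) passed it in the FASTQ-made tables. Replicate 2 was the lowest in 9 of 37 members (24.3%, against 27.9% of all expressed genes), among them Scd1, Ch25h, Fasn and Elovl6, the 4 with a range of at least 2-fold. For Fasn this holds by gene TPM only. In CPM Fasn was at 24.3, 21.4 and 19.8, and in coding transcripts of at least 1000 bases at 3.60, 3.13 and 2.93 TPM, with replicate 3 lowest in both. In the FASTQ-made tables these coding transcripts were at 2.75, 3.10 and 3.25 TPM, with replicate 1 lowest, so the order depended on the table. Some neutrophil markers were high in replicate 2, with S100a8 at 6.84, 39.4 and 5.36 TPM, S100a9 at 4.20, 58.0 and 5.10 TPM, and Ngp at 0.39, 7.78 and 0.28 TPM. Camp, at 0.76, 0.97 and 0.24 TPM, stayed low, and Ly6g was at 0 in all 3. The part of this difference between replicates in the member levels was not tested.

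The variance of each gene over the 3 replicates was also tested against the trend over all genes, with edgeR's quasi-likelihood fit of the expected counts. After Benjamini-Hochberg adjustment 0 of 37 members passed, beside 0% of the 11992 genes tested. The smallest adjusted p of any gene was 0.818 (edgeR). With 3 replicates the test thus singled out no gene, and failing it does not show that a member was stable. At an unadjusted p under 0.05 there were 3 of 37 members, beside 5.23% of genes. These were Ch25h (edgeR, adjusted p = 0.818), Scd1 (adjusted p = 0.818) and Scd2 (adjusted p = 0.913). Without the filter on low counts, 143 of 20285 genes passed, and Ch25h (edgeR, adjusted p = 0.00318) and Scd1 (adjusted p = 0.00646) were among them. The prior degrees of freedom, which set how far single genes are drawn to the trend, were 14.4 there against 4.14 with the filter.

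**Figure D4:**
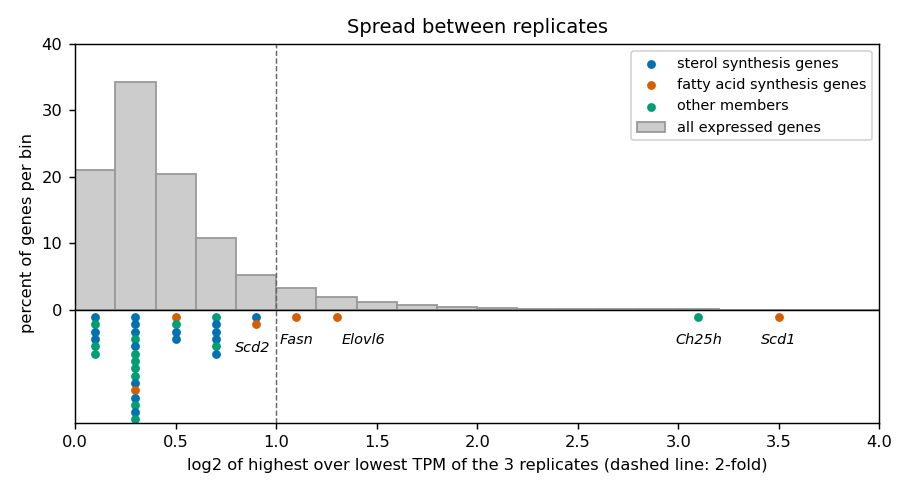
Grey bars give the percent of the 10510 expressed genes in each bin of the log2 ratio of the highest to the lowest replicate; each point below the axis is 1 of the 37 genes, placed at the centre of its bin; ratios above 4 are not drawn. In these alignment-made values sterol synthesis genes all lie left of the dashed line at 2-fold, and Ch25h and Scd1 lie far to the right.

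Within their narrow range, most sterol synthesis genes ordered the replicates alike. Replicate 1 was the lowest in 13 of 17 (76.5%, against 38.2% of all expressed genes) and replicate 3 the highest in 12 of 17 (70.6%, against 29.9%). Exceptions to the low replicate 1 were Pmvk, Mvd, Lss and Hsd17b7. On TMM-scaled CPM, edgeR's scaling of the counts, the counts were 13 (76.5%, against 42.8% of all expressed genes) and 14 of 17 (82.4%, against 36.8%). In the FASTQ-made tables both were 15 of 17 (88.2%), but there replicate 1 was lowest in 72.3% and replicate 3 highest in 61.1% of all expressed genes. The order was not particular to sterol synthesis. By TPM, over all 37 members, sterol genes included, replicate 1 was lowest in 25 (67.6%) and replicate 3 highest in 23 (62.2%). Replicate 1 was lowest in 3 of 6 fatty acid genes, 3 of 5 regulators, 3 of 4 efflux and LXR targets and 3 of 5 transport genes. Replicate 3 was highest in 4, 3, 1 and 3 of these. Replicate 1 also had the fewest counts, and genes of 1 pathway are not independent of each other. Whether depth has a part in the order was not tested.

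Of 30 further genes of the same pathways, 29 were expressed, beside 18.9% of all 55536 genes. The 4 highest were Lipa, the lysosomal acid lipase that frees cholesterol from esters, at 250, 312 and 346 TPM, the LXR alpha gene Nr1h3 at 118, 200 and 113 TPM, the fatty acid elongase gene Elovl1 at 108, 147 and 146 TPM, and Gramd1a, a carrier of cholesterol from the plasma membrane, at 120, 152 and 127 TPM. Nr1h3 was highest in replicate 2, as were Abca1 and Abcg1, while Mylip was highest in replicate 1 and Lpcat3 in replicate 3. Acacb, the mitochondrial form of acetyl-CoA carboxylase, was the only gene of the list below 1 TPM in every replicate, at 0.40, 0.16 and 0.17 TPM, while Acaca was above 5 TPM throughout. A range of at least 2-fold was seen in 3 of the 29, beside 8.26% of expressed genes. In edgeR's test of excess variance 0 of the 30 passed after adjustment, beside 0 of all 11992 genes tested. An unadjusted p under 0.05 was found for 4 of the 30 (Fads2, Me1, Nr1h3 and Gramd1b), beside 5.23% of genes.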

How the data were processed

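Polyadenylated RNA of 3 macrophage samples, 1 group, was analysed from quantification tables, with replicates numbered as in the labels. Per the file headers, the authors gave expected counts and TPM in the gene and transcript tables made from alignments. The deposited transcript tables made from FASTQ files have estimated counts and TPM. The file lists name assembly mm10 and annotation M21. Not given in the sources used here are the programs and strand settings. Entries that match no annotated gene, mostly phage phiX in counts, took 0.178%, 0.107% and 0.115% of counts and were left out.

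Levels are deposited TPM, as mean and SD. Group medians use log2(TPM + 1). Total counts make a count of 0 compatible with up to 3 counts, or 0.128, 0.0815 and 0.0796 CPM; floors and Poisson intervals cover counting error only. Excess variance was tested with edgeR 4.0.16 (R 4.3.3) on rounded expected counts, with TMM, filterByExpr, an intercept-only quasi-likelihood fit and Benjamini-Hochberg adjustment at 0.05; its p-values measure only the spread between these samples. Sequence sharing is the percent of 31-base sequences of a gene found in transcripts of another. Motifs were matched by letters. Alternatives were the pseudocount, the expression minimum, the low-count filter, the scaling, the table and each replicate left out.

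All 37 members are named, and of 30 further pathway genes the 4 highest and those below 1 TPM throughout. Members, lists and rules were chosen with earlier results of these data known.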

Additional observations from a re-analysis of the deposited data

How the results depend on the processing

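Of 136 recomputed values, 109 moved by less than 1 SD over replicates or, for counts, by less than 1.5 times, 26 moved further, and 1 moved further to the opposite sign. Many of the 109 were bound to do so and say nothing about stability. Leaving out 1 of 3 replicates cannot move a mean over replicates by 1 SD. Keeping only members at 1 TPM changes nothing in groups whose members are all expressed. In all, 5 values changed sign. For 4 of these 1 replicate was left out, so the move had to be less than 1 SD. Without replicate 1, late minus early sterol synthesis went from -0.17 to 0.07 and Abca1 over Abcg1 from -0.09 to 0.02 (log2). Without replicate 2, Fasn over Acaca went from -0.29 to 0.08 and Hmgcs1 over Insig1 from 0.05 to -0.18 (log2). The other was fatty acid minus sterol synthesis, -1.30 in the report, which was 0.39 with only members at 1 TPM; that setting drops the lowest fatty acid genes by construction. The same difference was -0.71 with the mean over members and -1.73 with coding transcripts of at least 1000 bases, an alternative chosen after seeing the data. Efflux minus fatty acid synthesis, 2.98, was 1.29, 2.39 and 3.39 under these 3 settings. Efflux minus sterol synthesis was between 1.66 and 1.73 under the 8 alternatives run. Members with at least a 2-fold range, 2 in the report, numbered 9 in the FASTQ-made tables, 4 with all members with any count, 1 with coding transcripts of at least 1000 bases, and between 1 and 2 with each replicate left out. Without the low-count filter the excess-variance test (edgeR) called 2 members and 143 genes, against 0 and 0. At 23377091 to 37685712 counts, levels in replicate 2 rested on 45 counts for Elovl6, 60 for Scd1 and 69 for Ch25h, the fewest of the members there. No paired analysis was possible because the series has a single group.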
